A study of Mus musculus with 4 samples.

Results

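Regions lost with lipopolysaccharide (LPS) in both genotypes are stretches of the mouse genome where acetylated histone H4 was called as a peak in untreated wt and untreated HDAC3 KO macrophages, and in neither library from LPS-treated cells. They were found by merging overlapping or touching peaks of the 4 deposited lists into 62481 regions and keeping those with that pattern of calls. The rule kept 3036 regions, 4.86% of all merged regions and 12.4% of the 24496 regions called in both untreated lists. The members were thus chosen by the calls in all 4 lists, so their presence and absence in the 4 lists are a description and not a finding.

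The libraries are chromatin immunoprecipitations of acetylated histone H4, sequenced, from bone marrow-derived macrophages of C57BL/6 mice on day 7 of differentiation. One genotype was HDAC3 +/-, labelled wild type and written wt here, and the other was HDAC3 -/-, written HDAC3 KO. Each genotype was left untreated or given 100 ng/ml LPS for 4 h. The wt cells thus carried 1 disrupted Hdac3 allele, and no group had both alleles intact. Neither how the allele was deleted nor how many mice gave marrow is given in the sources used here. With 1 library per group, no difference below could be set against a spread between replicates, and the intervals given for shares (exact Clopper-Pearson, 95%) cover counting error only.

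Acetyl groups on the tail of histone H4 loosen chromatin and mark active promoters and enhancers, where they are bound by bromodomain proteins. Histone acetyltransferases add them and histone deacetylases remove them. HDAC3 is the deacetylase of the NCoR and SMRT corepressor complexes. LPS, a cell wall component of Gram-negative bacteria, is sensed through Toll-like receptor 4 and drives a broad change of transcription in macrophages, in which many genes are induced and others are switched down.

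The lists held between 39550 and 48706 peaks each and covered 35.4 to 50.4 Mb, the most in LPS-treated HDAC3 KO. Read depth is unknown, and a peak that was not called may still have held reads below the caller's limit. Peak scores are the authors' own. They start near 50 in every list and depend on depth and input, so they rank peaks within a list. Where wt and HDAC3 KO scores stand side by side, where the lower of both orders the regions, or where 1 score level is applied to both lists, this describes the calls and not an amount of acetylation. Loss of a call cannot be told apart from a difference in depth or in immunoprecipitation between the untreated and LPS-treated libraries. No gene is named beside a region, because the gene table used here is on another genome build than the peaks. For the same reason the macrophage identity of the cells was not checked against the loci of marker genes. Coordinates are mm9, counted from 1.

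Most regions that were acetylated at rest in both genotypes kept a call after LPS. Of the 24496 regions called in both untreated lists, 17827 (72.8%, interval 72.2 to 73.3%) had a peak in both LPS-treated lists. A total of 3036 (12.4%, 12.0 to 12.8%) had a peak in neither and are the lost regions. A further 2647 (10.8%, 10.4 to 11.2%) lacked a peak in LPS-treated wt alone and 986 (4.03%, 3.78 to 4.28%) in LPS-treated HDAC3 KO alone. For each genotype by itself, 39.0% of the regions with an untreated peak had no LPS peak in wt and 29.0% in HDAC3 KO. In the opposite direction, 4101 regions were gained, with a peak in both LPS-treated lists and neither untreated list, 16.4% of the 25056 regions called in both LPS-treated lists.

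The regions described first are the 10 lost regions with the highest lower score of their 2 untreated lists among those with no LPS peak of either genotype within 5 kb. Other high-scored members had LPS peaks nearby: the 5 highest with one within 5 kb, picked after their values were seen, had lower scores of 515, 507, 495, 453 and 438. The first lay at chromosome 8, 85579116 to 85580375, with an untreated wt score of 724.5 and an untreated HDAC3 KO score of 901, above 96.4 and 97.4% of the peaks of those lists. Neither LPS-treated list had a peak in it, and the nearest one was 7.24 kb away in wt and 7.80 kb away in HDAC3 KO. Another of the 10 lay on the same chromosome, at 85387261 to 85388431, with scores of 385 and 467 and the nearest LPS peak 52.5 kb away.

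The second of the 10 stood in a longer stretch without LPS peaks. It lay at chromosome 2, 163056301 to 163059103, scored 576 without LPS in wt and 685 without LPS in HDAC3 KO, and the nearest LPS peak of either genotype was 179 kb away, in a region gained with LPS in both genotypes. In the 25 kb on either side of it, untreated peaks covered 4.07 kb in wt and 3.54 kb in HDAC3 KO, and LPS peaks covered none. A similar stretch surrounded chromosome 1, 88931051 to 88933696 (412 and 792), whose nearest LPS peak was 139 kb away. The region at chromosome 4, 109077983 to 109080311, had the highest untreated wt score of any lost region, 1136, against 468 in untreated HDAC3 KO. Its nearest LPS peak, 49.4 kb away, also belonged to a gained region.

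The remaining regions of the 10 lay between 9.45 and 85.9 kb from an LPS peak. They were chromosome 1, 130487184 to 130488896 (untreated wt score 542, untreated HDAC3 KO score 523), chromosome 8, 13500532 to 13507478 (511 and 871), and chromosome 16, 18411011 to 18414063 (395 and 714). The others were chromosome 17, 5237889 to 5239069 (394 and 458), and chromosome 12, 3780474 to 3781702 (390.4 and 504). All 10 were called by peaks above the 86th percentile of both untreated lists.

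Such strong members were few. Both untreated scores reached 100 in 692 lost regions (22.8%, interval 21.3 to 24.3%), 200 in 101 (3.33%, 2.72 to 4.03%), 300 in 33 and 500 in 6. The median untreated score was 91.8 for wt and 86.4 for HDAC3 KO, where the whole lists had medians of 116 and 122. The median member thus stood above 39.3% of the untreated wt peaks and 35.1% of the untreated HDAC3 KO peaks. Both scores were at or above the list medians in 467 members (15.4%, 14.1 to 16.7%) and both were below in 1641 (54.1%, 52.3 to 55.8%). Regions called in all 4 lists had medians of 268 and 254 in the same untreated lists.

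The share of regions lost in both genotypes went down steadily with the untreated score. Each region called in both untreated lists was placed by the lower of its 2 list percentiles. Below the 10th percentile, 668 of 1711 regions were lost in both (39.0%, interval 36.7 to 41.4%), and 34.2% were called in all 4 lists. Between the 40th and 50th percentile 329 of 2391 were lost (13.8%, 12.4 to 15.2%). Above the 90th percentile 8 of 2794 were (0.286%, 0.124 to 0.563%), and 98.7% were called in all 4 lists. The part of the caller's lower score limit in this gradient was not tested. Nor was the part of region width: a region's score is that of its highest peak, and wider lost regions tended to score higher (Spearman rho of width and lower untreated score 0.445).

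**Figure D1:**
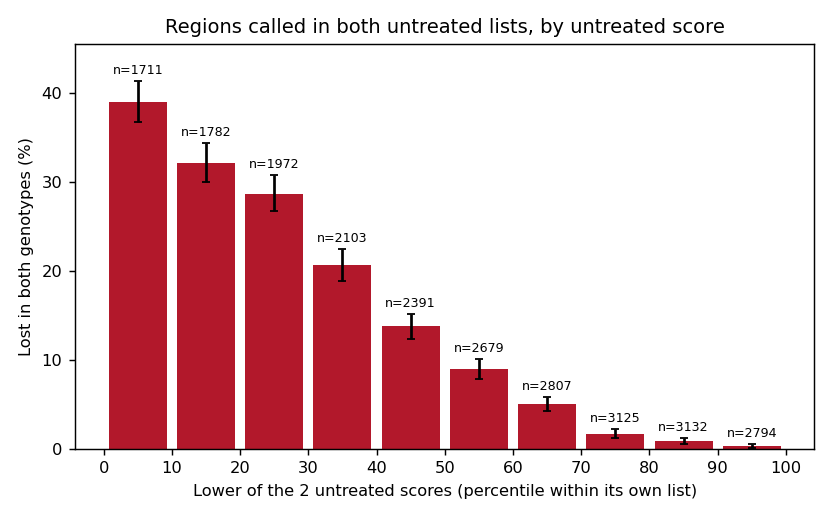
Share of regions called in both untreated lists that had no peak in either LPS-treated list (y axis, percent), by the lower of the 2 untreated scores as a percentile within its own list (x axis, bands of 10). Error bars are exact 95% binomial intervals and n is the number of regions in the band; the share goes from 39.0% in the lowest band to 0.286% in the highest.

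Many members stood at the edge of the call. In 494 lost regions (16.3%, interval 14.97 to 17.6%) the lower untreated score was under 55, with a lowest value of 50.05. Just outside the rule were 199 regions lost in wt alone whose only LPS peak, in HDAC3 KO, scored under 55. A further 117 regions lost in HDAC3 KO alone had an LPS peak in wt scored under 55. Regions called in all 4 lists with both LPS scores under 55 numbered 8, and 909 had both under 100.

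Lost regions were narrow, with a median width of 745 bp and 80% of them between 456 and 1339 bp. Regions gained in both genotypes had a median of 918 bp and regions called in all 4 lists one of 1761 bp. Those called in untreated wt alone or untreated HDAC3 KO alone, which rest on 1 peak list, had medians of 373 and 430.0 bp. A width of 2 kb or more was found in 48 lost regions (1.58%, interval 1.17 to 2.09%) and in 39.4% (38.7 to 40.2%) of the regions called in all 4 lists. Together the lost regions spanned 2.55 Mb. Their peaks made up 5.47% of the length covered in untreated wt and 5.81% of that in untreated HDAC3 KO.

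A merged region can only grow with the number of lists in it, so untreated peak length is the fairer measure. The lost regions held a median of 555 bp of untreated peak for wt and 604.5 bp for HDAC3 KO, against 1191 and 1246 bp in regions called in all 4 lists. The gap was smaller among low-scored regions. Among regions whose lower untreated score was under the 50th percentile of its list, untreated wt peaks covered a median of 519 bp in 2570 lost regions and 710.0 bp in 4816 regions called in all 4 lists. The medians in untreated HDAC3 KO were 557 and 698 bp.

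The share lost in both genotypes also differed by untreated wt length. It was 32.6% (interval 31.1 to 34.1%) below 500 bp and 16.7% (15.9 to 17.5%) from 500 to 1000 bp. From 2000 to 3000 bp 16 of 2059 regions were lost (0.777%), and at 3000 bp or more 3 of 980 were (0.306%, 0.063 to 0.892%). Broad acetylated regions were thus seldom without a call after LPS in both genotypes. This is partly fixed by the rule, because 1 LPS peak anywhere in a merged region keeps its call. A longer region has more room for such a peak.

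**Figure D2:**
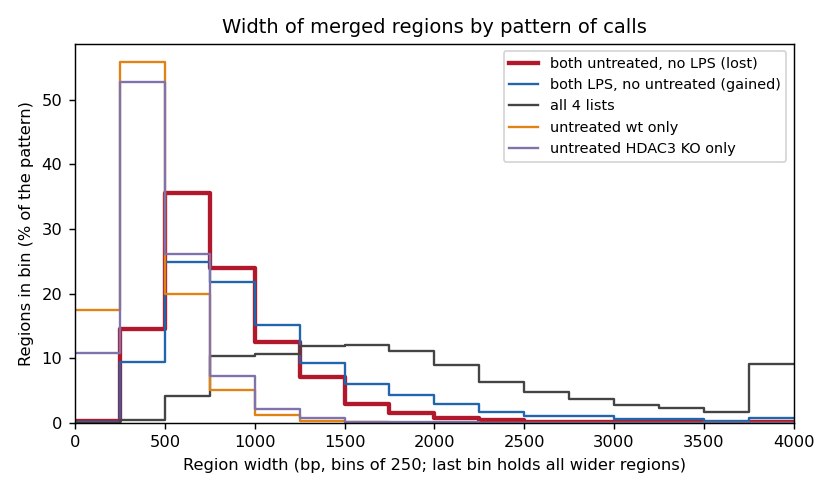
Widths of merged regions in bins of 250 bp (x axis), as a percentage of the regions of each pattern (y axis), with the last bin holding all wider regions. The lost regions (thick line, n = 3036, median 745 bp) lie between the regions called in 1 untreated list and those called in all 4 lists.

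The few broad exceptions are the widest lost regions. The widest covered 6947 bp at chromosome 8, 13500532 to 13507478, where the untreated lists had 4 peaks for wt and 2 for HDAC3 KO. They covered 5202 and 6713 bp, and no LPS peak of either genotype lay within 85.9 kb. The next covered 5254 bp at chromosome 12, 80726041 to 80731294, with untreated scores of 495 for wt and 517 for HDAC3 KO. In contrast to the first, it lay 97 bp from an LPS-treated wt peak and 227 bp from an LPS-treated HDAC3 KO peak, so it was the flank of a region that kept its call.

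The third widest region, at chromosome 7, 139877351 to 139880826 (3476 bp, scored 515 and 861), was a flank of the same kind, 483 bp from an LPS peak. The fourth, at chromosome 11, 54998552 to 55001823 (3272 bp), had untreated scores of 91.7 for wt and 486 for HDAC3 KO. It was covered over 3234 bp in the HDAC3 KO and 965 bp in the wt library.

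A lost region holds only untreated peaks, so by the rule peaks of the 2 genotypes in it had to overlap or touch. The extent of that overlap is given here as a description. A single peak in each library made up 2657 of the 3036 regions (87.5%, interval 86.3 to 88.7%). The bases called in both genotypes were a median of 62.9% of those called in either, against 71.7% for regions called in all 4 lists, and no region was merged by touching alone. Across the members, untreated wt and untreated HDAC3 KO scores had a Spearman rho of 0.31, against 0.73 across the 17827 regions called in all 4 lists. These are correlations across regions of the same libraries, and the lost regions span a narrower range of scores. Among regions whose lower score was under the 50th percentile of its list, rho was 0.03 for the 2570 lost regions and -0.14 for the 4816 called in all 4 lists. Choosing by the lower score leaves out pairs that are high in both lists, which by itself lowers rho. These 2 values therefore do not show how far weak scores matched between genotypes. The list percentiles of a member differed between genotypes by a median of 17.1 points, against 8.98 points for regions called in all 4 lists.

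In most members the HDAC3 KO library covered more bases, but it had the higher list percentile in only a minority. The HDAC3 KO library covered more bases than the wt library in 1706 members (56.2%, interval 54.4 to 58.0%), close to the 57.7% (57.0 to 58.5%) found for regions called in all 4 lists. The list percentile was higher in HDAC3 KO in 1391 members (45.8%, 44.0 to 47.6%). No matching percentile share is given for regions called in all 4 lists. A gap of at least 50 percentile points was found in 100 members with the higher rank in wt and in 54 with the higher rank in HDAC3 KO.

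The most unequal members were picked after their values were seen. Chromosome 7, 29791990 to 29794115, had untreated scores of 610.0 for wt and 50.07 for HDAC3 KO, the second of which was the lowest HDAC3 KO score of any member. For chromosome 2, 28059862 to 28061105, they were 528 and 53.0. In the other direction, chromosome 4, 115496323 to 115497686, had scores of 55.6 for wt and 423 for HDAC3 KO, and chromosome 9, 106223905 to 106225773, had 55.6 and 390.4. Such members paired a high peak in one genotype with a barely called one in the other.

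Lost regions lay both close to LPS peaks and far from any. An LPS peak of either genotype was found within 1 kb of 850 members (28.0%, interval 26.4 to 29.6%) and within 200 bp of 410 (13.5%, 12.3 to 14.8%). No LPS peak lay within 5 kb of 1445 (47.6%, 45.8 to 49.4%) and none within 50 kb of 215 (7.08%, 6.19 to 8.05%). The median distance was 4.45 kb, or 7.78 kb to the nearest peak of LPS-treated wt and 5.85 kb to that of LPS-treated HDAC3 KO, the list with the greater covered length. For gained regions the matching median distance, to the nearest untreated peak, was 4.72 kb, with 49.0% beyond 5 kb.

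Flanking and remote members had similar median widths. The median untreated wt score rose steadily with distance from an LPS peak, a rise that was not tested. The median untreated HDAC3 KO score and the share of strong peaks did not change steadily with distance. Members within 1 kb of an LPS peak had a median width of 715 bp and median untreated scores of 85.2 for wt and 83.3 for HDAC3 KO. Members more than 50 kb from one had a median width of 755 bp and median scores of 99.6 and 86.9. Both scores were at or above the list medians in 12.2% of the first and 16.7% of the second. Both scores reached 200 in 19 of the 850 members within 1 kb and in 12 of the 215 beyond 50 kb. The most remote members were weak: the region at chromosome 6, 45221745 to 45222245, lay 1424 kb from the nearest LPS peak and had untreated scores of 54.0 for wt and 64.3 for HDAC3 KO. The next were chromosome 12, 37967565 to 37968232 (858 kb away, scored 64.2 and 59.0), and chromosome 9, 76717653 to 76718048 (674 kb away, 61.3 and 81.2).

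The 101 members with both untreated scores of at least 200 included both kinds. No LPS peak lay within 5 kb of 59 of them and none within 50 kb of 12, while 19 had one within 1 kb. Their median width was 1393 bp.

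Regions called in all 4 lists were the common background. The median distance from a lost region to the nearest of them was 12.1 kb, and 475 members (15.6%, interval 14.4 to 17.0%) lay within 1 kb of one. A total of 610 (20.1%, 18.7 to 21.6%) lay more than 50 kb and 309 (10.2%, 9.12 to 11.3%) more than 100 kb away. For gained regions the median was 13.5 kb, for regions called in untreated wt alone 17.0 kb and for those called in untreated HDAC3 KO alone 9.73 kb. Regions called in all 4 lists lay a median of 8695 bp from the next of their kind. Lost and gained regions thus lay at similar distances from this constitutive set.

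**Figure D3:**
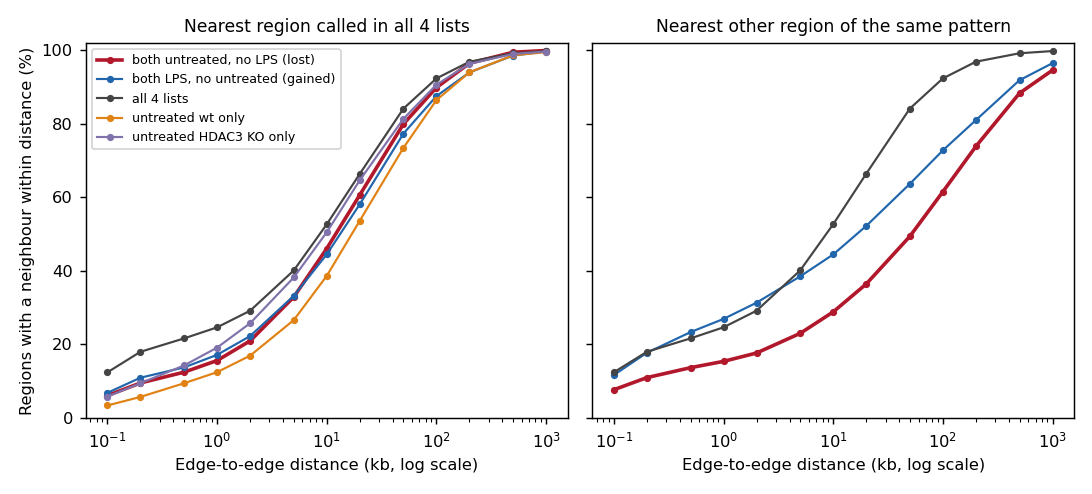
Cumulative percentage of regions (y axis) with a neighbour within a given edge-to-edge distance (x axis, kb, log scale), for the nearest region called in all 4 lists (left) and the nearest other region of the same pattern (right). Lost and gained regions run close together on the left (46.1 and 44.5% within 10 kb), and lost regions lie below gained ones on the right (28.9 and 44.5%).

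The constitutive regions next to a lost region kept less of their untreated peak length with LPS than constitutive regions in general. Over all 17827, the peak length with LPS was a median of 1.05 times that in untreated cells in wt and 1.14 times in HDAC3 KO, and 19.5% had less peak length with LPS in both genotypes, called narrower here. For the 1736 within 10 kb of a lost region these ratios were 0.94 and 1.03, and 543 (31.3%, interval 29.1 to 33.5%) were narrower in both. For the 475 within 1 kb they were 0.88 and 1.00, and 175 (36.8%, 32.5 to 41.4%) were narrower in both. Near gained regions the values lay on the other side: for 2081 within 10 kb the ratios were 1.31 and 1.40, and 151 (7.26%, 6.18 to 8.46%) were narrower in both. These shares are partly fixed by the rule and support nothing: an LPS peak of a neighbour that reached a lost region would have merged with it and removed it from the set, most of all within 1 kb. By the same rule, an untreated peak could not reach a gained region.

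Within a genotype the ratios cannot be read against 1, because the lists differ in total covered length. Compared with the medians over all constitutive regions, neighbours within 1 kb of a lost region had lower ratios in both wt and HDAC3 KO. By genotype, 63.6% of these neighbours were narrower with LPS in wt and 50.5% in HDAC3 KO, against 43.9 and 31.9% of all constitutive regions.

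The closest other region of a lost region was most often constitutive or itself confined to untreated cells. It was called in all 4 lists for 893 members (29.4%), and such regions made up 30.0% of all other regions. It was called in untreated wt alone for 692 (22.8%, against 12.3% of all other regions) and in untreated HDAC3 KO alone for 608 (20.0%, against 8.69%). Regions gained in both genotypes were the closest for 37 members (1.22%), although they made up 6.90% of the others. Those called in LPS-treated HDAC3 KO alone were the closest for 122 (4.02%, against 15.2%). A gained region lay within 10 kb of 83 lost regions (2.73%, 2.18 to 3.38%), and the median distance from a lost to a gained region was 204 kb. Among regions called in all 4 lists, 1736 (9.74%, 9.31 to 10.2%) had a lost region within 10 kb and 2081 (11.7%, 11.2 to 12.2%) a gained one. Only 84 of the 4101 gained regions (2.05%, 1.64 to 2.53%) had a lost region that close. The shares of neighbours with LPS peaks are partly fixed by the rule. An LPS peak that reached a lost region would have merged with it and removed it from the set, and the closest other region lay a median of only 924 bp away.

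The surroundings of lost regions include other lost regions, which hold no LPS peak by the rule. In the 25 kb on either side, untreated peaks covered a mean of 3418 bp in wt and 3820 bp in HDAC3 KO, and LPS peaks covered 2231 and 3252 bp. Less was covered with LPS in both genotypes around 1465 of 3036 lost regions (48.3%, interval 46.5 to 50.0%), against 22.5% around regions called in all 4 lists and 4.19% (3.601 to 4.85%) around gained regions. More was covered in both around 406 (13.4%, 12.2 to 14.6%), against 35.6% around regions called in all 4 lists.

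The shares lay nearer to those of constitutive regions where no other lost region was close, and in HDAC3 KO the direction turned. This shift is partly fixed by the choice, which takes lost regions out of the surroundings and leaves gained regions in. Regions called in all 4 lists were not filtered in this way. Around the 1873 members with no other lost region within 25 kb, less was covered with LPS in both genotypes in 496 (26.5%, interval 24.5 to 28.5%) and more in 364 (19.4%, 17.7 to 21.3%). In wt less was covered with LPS around 59.1% and more around 28.4% of these members, with means of 2718 bp untreated and 2277 bp with LPS. In HDAC3 KO less was covered around 37.2% and more around 47.5%, with means of 2888 and 3198 bp. Around regions called in all 4 lists less was covered in 46.04% for wt and 29.9% for HDAC3 KO. The difference between genotypes was not tested, and the LPS-treated HDAC3 KO list had the greatest covered length of the 4.

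**Figure D4:**
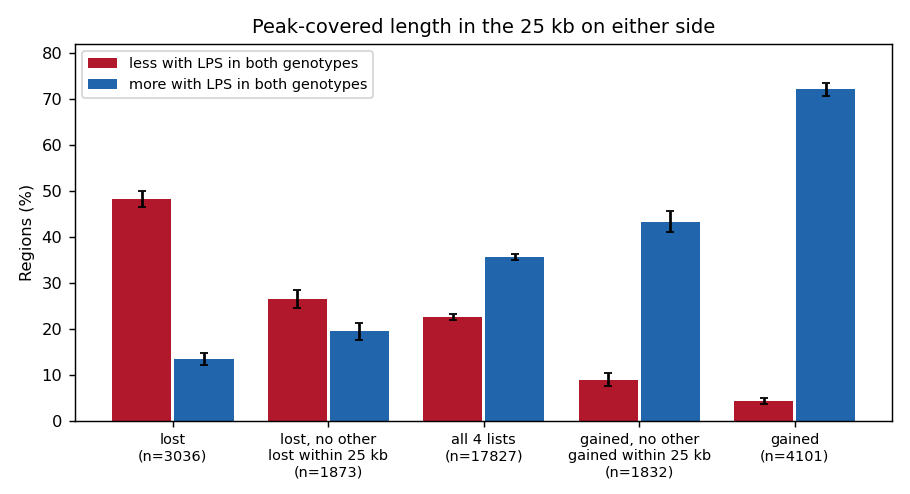
Share of regions (y axis, percent) whose surrounding 25 kb on either side held less (red) or more (blue) peak length with LPS in both genotypes, for each pattern of calls, with exact 95% binomial intervals as error bars. Lost regions show 48.3% less and 13.4% more, and 26.5 and 19.4% where no other lost region lay within 25 kb; other lost regions in these surroundings hold no LPS peak by the rule.

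Part of the lost regions occurred in groups. Another lost region lay within 10 kb of 876 members (28.9%, interval 27.2 to 30.5%) and within 1 kb of 468 (15.4%, 14.1 to 16.7%). A same-pattern neighbour lay within 10 kb for 52.7% of constitutive and 44.5% of gained regions. For regions called in untreated wt alone or untreated HDAC3 KO alone the shares were 34.0 and 37.4%. Regions lost in wt alone or HDAC3 KO alone had lower shares, 23.5 and 5.98%. Patterns with higher shares held more regions than the lost set, and those with lower shares fewer. Grouping particular to lost regions is therefore not shown. Among lost regions the share within 10 kb was 16.2% once regions up to 500 bp apart were joined. It was 14.99% where both untreated peaks had to reach their list's median score and only such regions counted as neighbours. The median distance to the nearest other lost region was 52.3 kb, against 15.9 kb between gained regions, which are more numerous. Among the 101 members with both scores of at least 200, 57 (56.4%) had another lost region of any score within 10 kb. For 40 of the 101 one lay within 1 kb. This share is not comparable with the 14.99%, which counted fewer regions as neighbours. Joining lost regions across gaps of up to 10 kb gave 379 chains of 2 or more regions, and 88 of them, with 294 regions, had 3 or more. In 57 of these 88 no LPS peak of either genotype lay anywhere between the ends of the chain. Members hold no LPS peak by the rule and gaps were at most 10 kb, so this count is partly fixed. No matching count for other stretches is given here. Gained regions formed 230 chains of 3 or more, which held 21.7% of them against 9.68% of the lost regions.

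The 3 longest chains by number had 6 lost regions each. The first ran over chromosome 15, 27595871 to 27606571. Untreated peaks covered 4659 bp of it in wt and 7829 bp in HDAC3 KO, no LPS peak lay in it, and the nearest was 265 bp beyond it. Its members were scored 70.0 to 184 for wt and 80.5 to 326 for HDAC3 KO, both untreated. The second ran over chromosome 16, 23269185 to 23288296, with 4721 and 7019 bp of untreated peaks, and the nearest LPS peak was 101 kb away. The third ran over chromosome 15, 6284249 to 6297454. It was covered over 5407 and 7530 bp in untreated and 747 and 554 bp in LPS-treated cells, wt first, so here a small part of the stretch kept its call.

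The next chains had 5 members. At chromosome 7, 19895588 to 19906103, untreated peaks covered 3490 bp in wt and 4882 bp in HDAC3 KO, and at chromosome 17, 8403776 to 8419585, they covered 3093 and 4529 bp. Neither held an LPS peak. The strongest members of these 2 chains were scored 335 and 266 for wt and 461 and 295 for HDAC3 KO, both untreated.

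**Figure D5:**
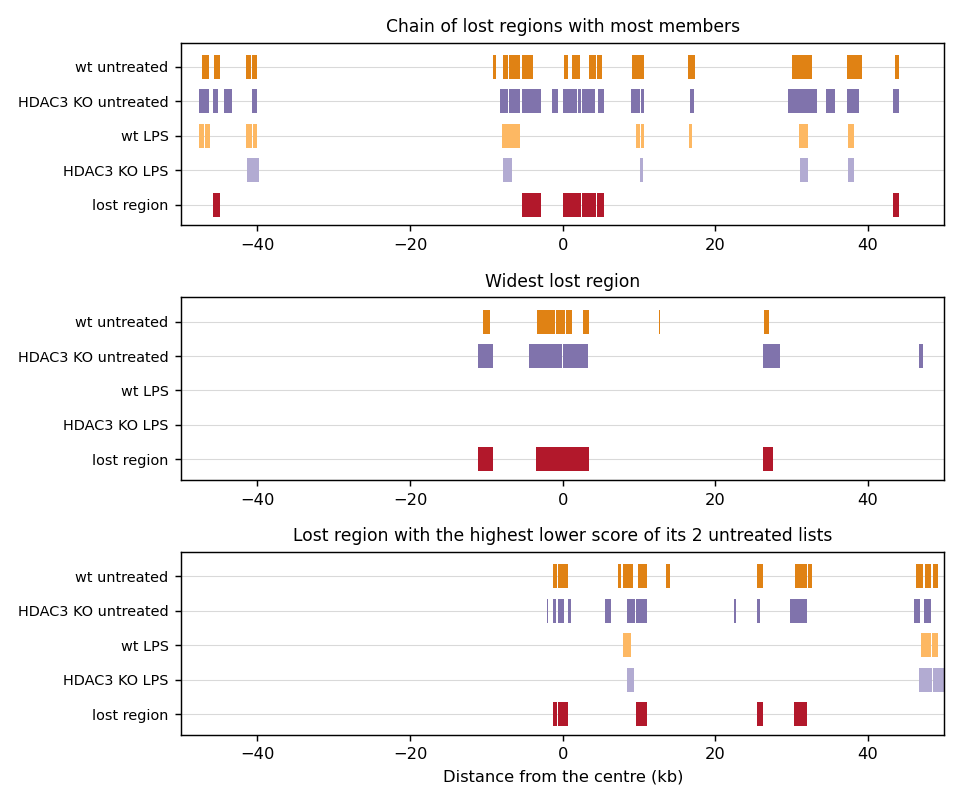
Peaks of the 4 lists (rows) within 50 kb of the centre of 3 places, with lost regions in the bottom row and distance from the centre in kb on the x axis. From top to bottom they are the chain of 6 lost regions on chromosome 15 (27595871 to 27606571), the widest lost region (6947 bp) and the lost region whose lower untreated score was highest (724.5, against 901 in the other list). The middle map has no LPS peak of either genotype.

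Fixed windows of 50 kb were ranked by their length in lost regions, which hold no LPS peak by the rule, so less peak length with LPS there is a description fixed by the choice. The window with most length in lost regions was chromosome 12, 80700001 to 80750000, with 4 of them and 8.60 kb in all. The wt peaks in it summed to 10.3 kb untreated and 1.60 kb with LPS, and the HDAC3 KO peaks to 13.5 kb untreated and 4.01 kb with LPS. In chromosome 8, 13500001 to 13550000, untreated peaks summed to 6.15 kb for wt and 9.25 kb for HDAC3 KO, with none after LPS in either. In chromosome 7, 139850001 to 139900000, wt peaks went from 8.78 to 1.14 kb and HDAC3 KO peaks from 9.03 to 1.79 kb with LPS. Of the 2377 windows with a lost region, 423 had no LPS peak at all. No matching count is given for windows without a lost region.

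Lost regions were found on every placed chromosome with peaks. Of the regions called in both untreated lists, the share lost in both genotypes ranged from 9.62% on chromosome 4 (146 of 1517, interval 8.19 to 11.2%) to 14.99% on chromosome 15 (165 of 1101, 12.9 to 17.2%), against 12.4% over the genome. It was 13.2% on the X chromosome (64 of 486, 10.3 to 16.5%). The intervals of chromosomes 4 and 15, picked as the lowest and highest, did not overlap. Gained regions outnumbered lost ones on every placed chromosome except 7 (202 lost and 194 gained) and 15 (165 lost and 150 gained). Chromosome 15 also held 2 of the 3 chains of 6 lost regions.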

How the data were processed

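Histone H4 acetylation was measured by ChIP-seq in 4 libraries, 1 per group. Bowtie and mm9 are named in the submitters' processing notes. Per the file headers, MACS compared every ChIP library with an input, so peaks were called per library. Versions and settings are not given in the sources used here. The score in column 5 of each list is the authors' deposited value. Its scale is not stated.

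Peaks were merged where they overlapped or touched (gap 0; checked to be identical to bedtools 2.31.1 merge over 62481 regions). A region's score in a list is that of its highest peak. Distances are edge to edge. Shares have exact intervals (scipy 1.17.1). The pattern counts were recovered for 15 of 15 patterns over 62681 simulated regions. Software was pandas 2.3.3, numpy 2.4.6, matplotlib 3.10.9 and Python 3.11.15.

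Named regions were the 10 highest by their lower untreated score with no LPS peak within 5 kb, the 5 widest, the 5 chains with most members (gaps up to 10 kb), the 3 most remote from LPS peaks and the 3 windows of 50 kb with most length in lost regions. The members and these rules were chosen with earlier results of these data known. Alternatives were only peaks scored no lower than the median of their list, only the top 20000 peaks per list, merging across 500 bp, an LPS peak counted only at 50% cover, untreated peaks at or above the median with all LPS peaks kept, autosomes only, and other distances. The reference gene table and promoter sequences are on GRCm38, so promoters, gene lists and cell type markers were not analysed here and no sequence is printed.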

Additional observations from a re-analysis of the deposited data

How the results depend on the processing

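Each of the 7 summary values was recomputed under up to 8 other settings, 46 values in all. With 1 library per group no library could be left out. No paired analysis was possible because each group has 1 library. Of the 46 values, 11 stayed within 1.5 times (the number of regions) or within the interval of the main value, among them all 7 with autosomes only. The number of lost regions, 3036, became 1726 with the top 20000 peaks per list and 467 where both untreated peaks had to reach their list's median against all LPS peaks. It was 2067 with peaks at or above the median score, 2191 after merging across 500 bp and 4075 where an LPS peak counted only at 50% cover.

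In the order median-score peaks, 20000 highest peaks, 500-bp merging, 50% cover and untreated peaks at or above the median, the median width was 1113, 1184.5, 975, 870.0 and 1152 bp. The median untreated wt score was 199, 234, 93.6, 104 and 181. The median untreated HDAC3 KO score was 196, 221, 84.7, 97.1 and 189.9. The share with no LPS peak within 5 kb was 66.1, 68.4, 62.7, 35.5 and 55.03%. The median distance to a region called in all 4 lists was 24963, 27516, 16363, 18579 and 14061 bp. The share with another lost region within 10 kb was 22.2, 19.6, 16.2, 33.5 and 14.99%. Without an LPS peak within 2 or 20 kb were 64.1 and 19.4% (47.6% within 5 kb). With another lost region within 5 or 50 kb were 23.0 and 49.4% (28.9% within 10 kb).

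After merging across 500 bp, 2221 of the lost regions (73.2%) still lay in a lost region. The joined region was called in all 4 lists for 496 (16.3%). It was lost in wt alone for 213 and in HDAC3 KO alone for 106. By construction, merging joins close neighbours into 1 region, and a score filter counts weak LPS peaks as absent. Read depth limits all of these values and is unknown.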
